A study of Caenorhabditis elegans with 6 samples.

Results

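The astacins of the nematode Caenorhabditis elegans were examined, a family of secreted or membrane-bound zinc metalloproteases whose genes carry the symbol nas (nematode astacin) and a number. Members were all genes of the deposited count table whose sequence name paired with a WBcel235 symbol of that form, which gave 34 of 19512 genes, all of them protein coding. The annotation holds 37 such genes, and the other 3 (nas-10 and a pair of loci that are both named nas-2) were not analysed here. The study fed wild-type N2 worms with bacteria that make elt-2 double-stranded RNA (elt-2 RNAi) or with bacteria holding an empty vector (Control), from the L1 larva for 28 hours until the L4 stage, the last larval stage. There were 3 libraries for elt-2 RNAi and 3 for Control, lettered A, B and C under each label, and each came from whole worms of a culture of about 10000 animals, so that fewer cells of a type and less RNA per cell cannot be told apart. elt-2, a GATA factor gene, is active in the intestine, and the comparison asks which genes depend on it at L4. Where 3 values stand for a label they are in the order A, B, C.

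An astacin is made as an inactive proenzyme, and removal of its propeptide opens a catalytic centre in which a zinc ion is held by a conserved histidine-rich motif. The worm has many more astacins than vertebrates do. They take part in digestion and in building the grinder of the pharynx, in hatching, in the trimming of cuticle collagens and in ecdysis, the step in which the old cuticle is loosened and shed at the end of each larval stage. The family is usually divided by the domains behind the protease: nas-1 to nas-5 have hardly any, nas-6 to nas-15 carry ShK toxin-like domains, nas-16 to nas-30 carry EGF-like and CUB domains, nas-33 to nas-38 add a thrombospondin repeat, and nas-39 resembles BMP-1 and Tolloid.

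The RNAi target went against the labels. elt-2 had 689, 111 and 3070 counts in the RNAi-labelled libraries, against 233, 48 and 78 in those labelled Control, and its log2 fold change was 4.60 (SE 1.16, edgeR adjusted p 0.0395), with groups that overlapped by library size alone. The call was lost without Control A (4.70) and without elt-2 RNAi C (2.80), and elt-2 stayed higher in both fits. Every direction given here is therefore between libraries as labelled. Library totals were 29578175 to 35047530 counts in the RNAi-labelled libraries and 16568515 to 24168901 in those labelled Control, and 14326 to 14955 against 15114 to 16454 genes had a count. The TMM factors, which rescale each library so that most genes keep their level, were 0.492 to 0.698 in the RNAi-labelled libraries and 3.45, 1.36 and 0.975 in Control libraries A, B and C. Levels are in CPM (counts scaled to a library of 1000000), after TMM scaling unless library size alone is named, and Control A is the library that the choice moves most. A batch that followed the labels cannot be told apart from them.

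As a family the astacins were rarely read. Reads of 20, 21 and 21 members were found in the RNAi-labelled libraries, against 29, 30 and 23 members in the Control-labelled libraries, although the RNAi-labelled ones were deeper. Summed over the 34 genes there were 1412, 1244 and 1429 counts in the RNAi-labelled libraries, against 1515, 1270 and 1479 in the Control-labelled libraries. By library size alone this was 40.8 to 47.7 CPM (RNAi-labelled) against 55.2 to 91.4 CPM (Control-labelled), with Control A highest (95% exact binomial interval 86.9 to 96.2 CPM) and elt-2 RNAi C lowest (38.7 to 42.9 CPM). These intervals cover counting error only. After TMM scaling the order turned round, at 65.1 to 83.0 CPM in the RNAi-labelled libraries against 26.5 to 62.8 CPM in those labelled Control. nas-9 took 69.7% to 74.0% of the astacin counts in the RNAi-labelled libraries, against 17.2%, 43.7% and 60.6% in those labelled Control, and without it the order did not turn. The other 33 genes together had 19.7 to 21.6 CPM in RNAi-labelled against 22 to 24.7 CPM in Control-labelled libraries after TMM scaling, and 10.6 to 14.4 CPM in RNAi-labelled against 24.1 to 75.7 CPM in Control-labelled libraries by library size alone.

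**Figure D1:**
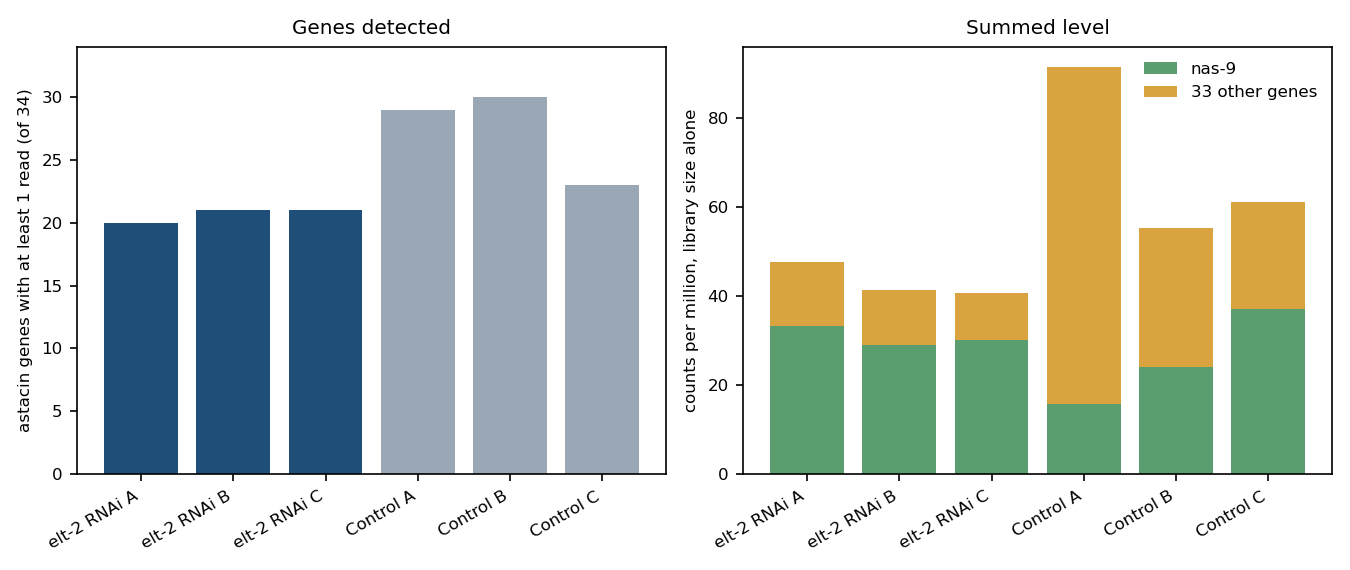
Left, number of the 34 astacin genes with at least 1 read in each library. Right, their summed level in CPM by library size alone, split into nas-9 and the 33 other genes. Detection was 20 to 21 genes in the RNAi-labelled libraries and 23 to 30 in those labelled Control, and Control A had the highest sum and the smallest nas-9 part.

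3SEQ reads the 3-prime end of a transcript, so a gene's counts do not grow with its length, and levels of different members are compared in mean CPM over the 6 libraries. nas-9 stood first at 35.8 CPM, above 92.8% of all genes in the table. nas-32 (4.81 CPM), nas-11 (3.93 CPM), nas-37 (2.61 CPM), nas-24 (2.60 CPM) and nas-20 (2.36 CPM) followed, and by library size alone nas-24 came second. The ranges of nas-37, nas-24 and nas-20 over the 6 libraries overlapped widely, whereas nas-9 exceeded every other member in 5 of the 6 libraries and was exceeded only by nas-24 in Control A. Divided by the length of the longest annotated transcript, nas-9, nas-32 and nas-11 kept the leading places. nas-17, nas-39, nas-14 and nas-3 lay between 0.502 and 1.16 CPM, and the 24 remaining members at or below 0.448 CPM (nas-7). nas-18 had no read among 158415676 counts, which allows at most 0.0189 CPM.

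**Figure D2:**
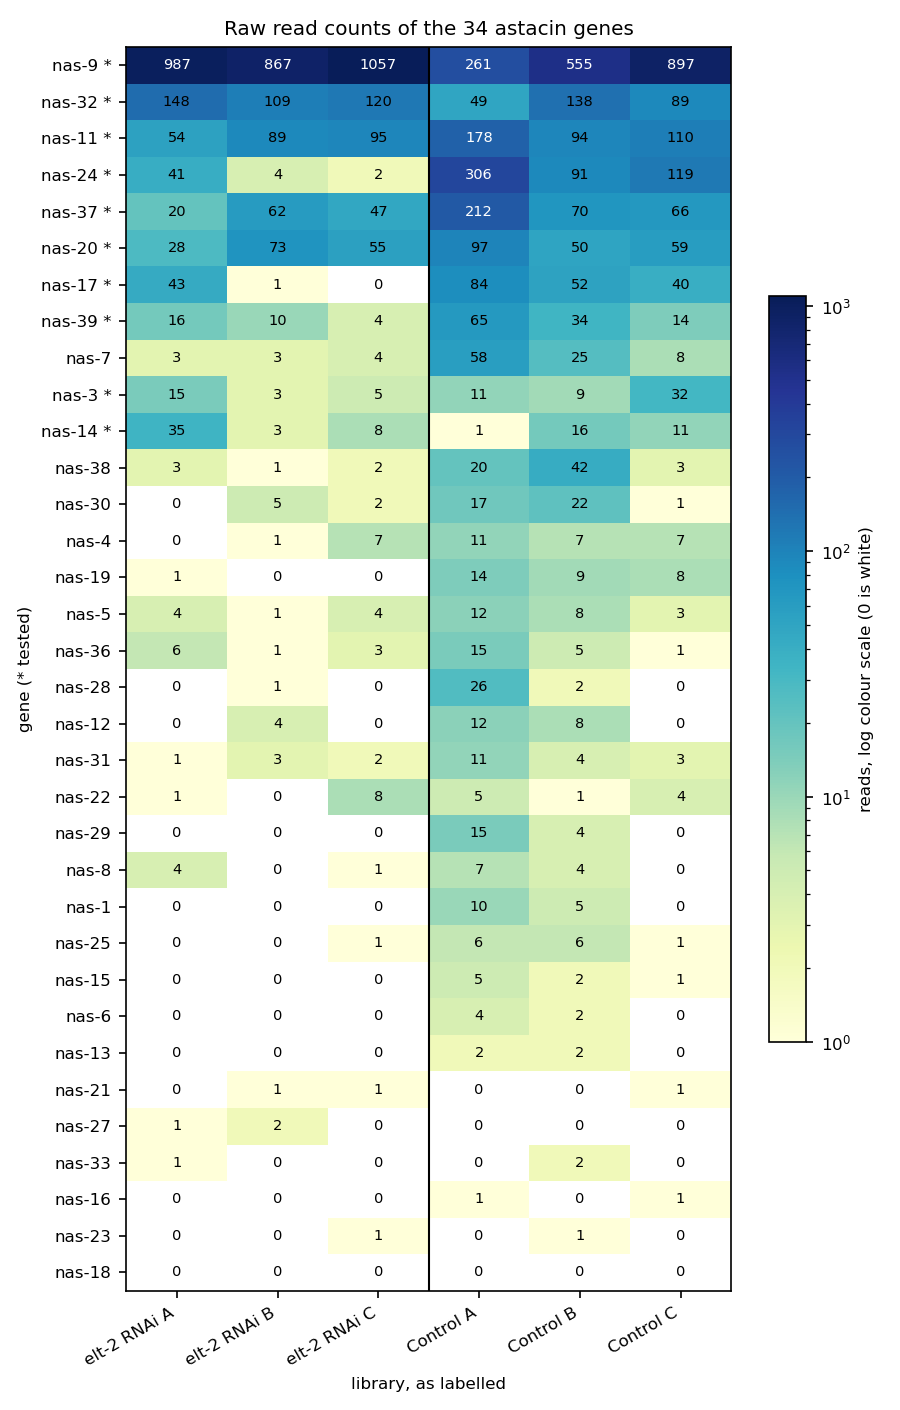
Raw reads of each astacin gene (rows, from most to fewest in all) in each library (columns, as labelled), with colour on a log scale and 0 in white. Genes with an asterisk are the 10 that passed the filter on low counts, and most rows below them hold reads mainly in Control A and Control B.

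Of the 34 members 10 passed the filter on low counts (29.4%, against 58.8% of all genes), and only nas-24 passed the test. It was lower in the RNAi-labelled libraries, and no member was called higher (edgeR's quasi-likelihood test, adjusted p under 0.10). Over all 11474 genes tested 15.9% were called lower and 13.0% higher, so that 1 of 10 was no more than the background. DESeq2 likewise called 1 member lower and 0 higher, against 16% and 18.7% of all genes. At an unadjusted p under 0.05 there was also 1 member, against 4180 genes in all. The log2 fold changes of the 10 ran from -2.50 to 1.36 with 5 on each side of 0, and their median was -0.05, beside -0.12 for all genes tested. After TMM scaling the labelled groups did not overlap for nas-24, which was lower, and for nas-9 and nas-32, which lay higher without passing the test. Over all genes tested such separation was found for 24.2% in the lower and 22.5% in the higher direction.

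nas-24 (F20G2.4, chromosome V, 13769386 to 13771329, plus strand) is a member of the EGF and CUB type, and no other protein-coding gene overlaps it. Its 3 RNAi-labelled libraries held 47 counts, against 516 for those labelled Control. After TMM scaling nas-24 stood at 1.99, 0.209 and 0.116 CPM in the RNAi-labelled libraries, against 5.36, 2.90 and 5.05 CPM in the Control-labelled libraries, and by library size alone at 1.39, 0.133 and 0.0571 CPM (RNAi-labelled) against 18.5, 3.96 and 4.92 CPM (Control-labelled). Each RNAi-labelled library lay below each Control-labelled one, with elt-2 RNAi A the nearest to them. nas-24 averaged 0.770 ± 1.05 CPM in the RNAi-labelled libraries and 4.44 ± 1.34 CPM in those labelled Control (SD, n = 3 each), and its log2 fold change was -2.50 (SE 0.90, edgeR adjusted p 0.0904). By exact permutation of log2 CPM (two-sided) p was 0.1, the smallest that 3 against 3 libraries allow. Of the 6 fits that each left out 1 library, only the fit without elt-2 RNAi A kept the call (-4.65, edgeR adjusted p 0.0163), in which 5.48% of all genes were called lower and 7.86% higher. The other 5 had log2 fold changes of -2.81 to -1.92 and edgeR adjusted p of 0.102 to 0.242.

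nas-17 (K03B8.2, chromosome V, 11398916 to 11400563, plus strand), another EGF and CUB member, also had elt-2 RNAi A far above B and C. Its counts were 43, 1 and 0 in the RNAi-labelled libraries, against 84, 52 and 40 in the Control-labelled libraries. The controls were even after scaling, at 1.47, 1.66 and 1.70 CPM, whereas elt-2 RNAi A had 2.08 CPM, above all of them, and B and C had 0.0523 and 0 CPM. With that overlap the change of -1.15 on the log2 scale (SE 1.20, edgeR adjusted p 0.500) did not exceed the replicate spread. Without elt-2 RNAi A it was -5.61 and the gene was called (edgeR adjusted p 0.0261). With elt-2 RNAi A kept, a rank product on counts scaled by library size alone also called it. That test, of the type the study used, called 13.0% of all genes in the lower and 13.1% in the higher direction. As coded here it treats comparisons that share libraries as independent, so it may call genes too easily.

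nas-17 lies in a run of 4 members on chromosome V (nas-16, nas-18, nas-17, nas-19), with nas-18 1198 bp away on the same strand and nas-19 (K03B8.5, 11401091 to 11402710, minus strand), 527 bp away on the other strand. nas-19 was read 1, 0 and 0 times in the RNAi-labelled libraries, against 14, 9 and 8 times in the Control-labelled libraries. The groups did not overlap, and a ratio of 0.0634 was found for the summed counts after TMM scaling (95% counting interval 0.00156 to 0.380). nas-19 had too few counts to enter the main comparison. With no filter it was called lower (edgeR log2 fold change -3.72, SE 1.20, adjusted p 0.0742), where 9.65% of 17958 genes were called lower and 8.41% higher. The rest of the run was nearly unread, with 0 counts for nas-16 and nas-18 in the RNAi-labelled libraries against 2 and 0 in those labelled Control.

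A further run on chromosome V holds nas-20, nas-21 and nas-22, 254 and 799 bp apart. nas-20 (T11F9.3, 11470925 to 11472309, minus strand) had 1.36, 3.82 and 3.19 CPM in the RNAi-labelled libraries against 1.70, 1.60 and 2.50 CPM in the Control-labelled libraries, so that the groups overlapped (log2 fold change 0.53, SE 0.48, edgeR adjusted p 0.428). By library size alone its log2 fold change was -1.08. nas-21 had 2 counts in the RNAi-labelled libraries and 1 in those labelled Control, and nas-22 had 9 and 10. Neighbours in both runs thus differed widely in level. Only uniquely mapped reads were kept, so reads that near-identical neighbours share may be missing.

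Among the members with ShK domains nas-9 (C37H5.9, chromosome V, 4836027 to 4840013, minus strand) was the most abundant astacin. It had 987, 867 and 1057 counts in the RNAi-labelled libraries, against 261, 555 and 897 counts in the Control-labelled libraries. Scaled by TMM, nas-9 was at 47.8, 45.3 and 61.4 CPM in the RNAi-labelled libraries and at 4.57, 17.7 and 38.1 CPM in the Control-labelled ones. The groups did not overlap, Control A was far below the other 5 libraries, and the log2 fold change was 1.36 (SE 0.68, edgeR adjusted p 0.181), which did not pass the test. By library size alone the groups overlapped, at 33.4, 28.8 and 30.2 CPM (RNAi-labelled) against 15.8, 24.1 and 37.1 CPM (Control-labelled), and the log2 fold change was 0.26. Without Control C, the control nearest to the RNAi-labelled ones, nas-9 was called higher (2.30, edgeR adjusted p 0.0514), the only member called higher in any of the fits run. In that fit 18.3% of all genes were called lower and 15% higher.

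nas-11 (K11G12.1, chromosome X, 6713577 to 6716357, plus strand) had 2.61, 4.65 and 5.51 CPM in the RNAi-labelled libraries against 3.12, 3.00 and 4.67 CPM in the Control-labelled libraries, and the fold change on the log2 scale was 0.25 (SE 0.40, edgeR adjusted p 0.670). The groups overlapped, and by library size alone its log2 fold change turned to -1.37. The exons of nas-11 overlap those of smf-2 on the opposite strand by 163 bp, and smf-2 had no count in any library. nas-14 (F09E8.6, chromosome IV, 13170541 to 13174144, plus strand) was read 35, 3 and 8 times under the elt-2 RNAi label against 1, 16 and 11 times under Control, a spread within each group that exceeded the difference between them (log2 fold change 1.29, SE 1.12, edgeR adjusted p 0.415).

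nas-32 (T02B11.7, chromosome V, 894909 to 899187, minus strand) had its libraries spread much as nas-9 did. It was read at 7.17, 5.70 and 6.97 CPM in the RNAi-labelled libraries against 0.858, 4.40 and 3.78 CPM in the Control-labelled libraries, again with Control A lowest and no overlap. The log2 change of 1.14 (SE 0.57, edgeR adjusted p 0.178) did not pass the test. By library size alone it was -0.07, with 3.42 to 5.0 CPM under the elt-2 RNAi label against 2.96 to 6.0 CPM under Control. nas-3 (K06A4.1, chromosome V, 9478163 to 9479601, plus strand), the only tested member of the short type, had 15, 3 and 5 counts under the elt-2 RNAi label against 11, 9 and 32 under Control. Its log2 fold change was -0.58 (SE 0.90, edgeR adjusted p 0.654), and 0.83 without Control C.

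nas-37 (C17G1.6, chromosome X, 9944844 to 9949063, minus strand) is made by the epidermis and is needed to shed the old cuticle at ecdysis. It had 20, 62 and 47 counts in the RNAi-labelled libraries, against 212, 70 and 66 counts in the Control-labelled libraries. In TMM-scaled CPM nas-37 was at 0.968, 3.24 and 2.73 under the elt-2 RNAi label against 3.71, 2.23 and 2.80 under Control, so that elt-2 RNAi A stood below the other 5 libraries and the groups overlapped. The log2 fold change was -0.34 (SE 0.50, edgeR adjusted p 0.635). By library size alone nas-37 was called lower (-2.18, edgeR adjusted p 0.0647), under a scaling that called 52.3% of all genes lower and 3.84% higher. Its exons overlap those of C17G1.5 on the opposite strand by 32 bp. Strand use in counting was not given in the sources used here, so a part of either gene's reads may belong to the other.

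nas-39 (F38E9.2, chromosome X, 16456927 to 16471333, plus strand), the member most like BMP-1 and Tolloid, had 16, 10 and 4 counts in the RNAi-labelled libraries, against 65, 34 and 14 counts in the Control-labelled libraries. Its log2 fold change after TMM scaling was -0.87 (SE 0.58, edgeR adjusted p 0.289) with overlapping groups, and by library size alone it was called lower (-2.58, edgeR adjusted p 0.0425) with no overlap. nas-39 shares 276 bp of exon with F38E9.1 on the same strand, which had 22, 9 and 14 counts in the RNAi-labelled libraries and 192, 67 and 41 in the Control-labelled ones, and the source of its counts is uncertain to that extent.

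**Figure D3:**
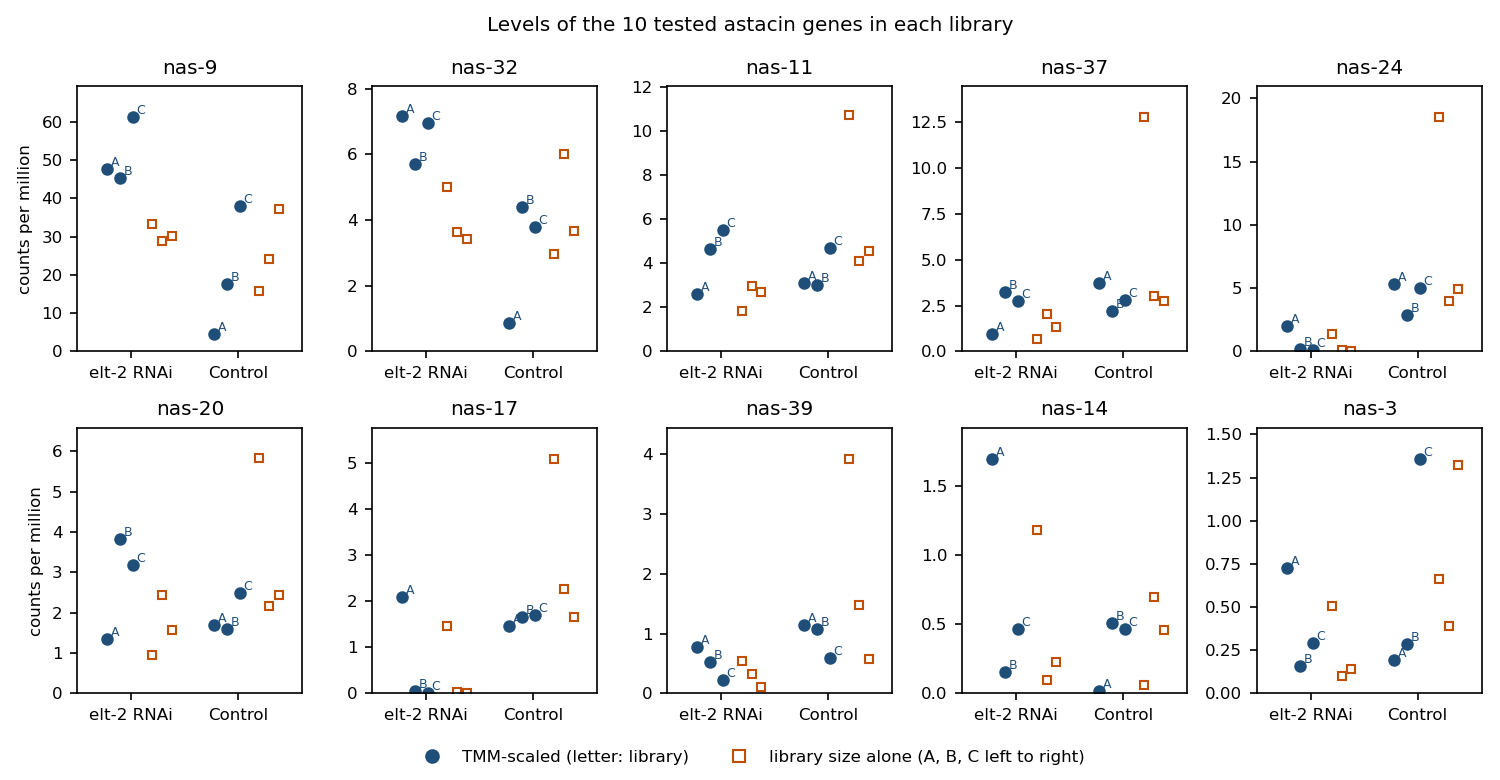
Level of each tested astacin gene in CPM (linear axes from 0), with 3 libraries labelled elt-2 RNAi at the left and 3 labelled Control at the right of each panel. Filled circles are TMM-scaled values with the library letter, and open squares are values by library size alone. nas-24 separates the groups on both scales, while nas-9 and nas-32 separate them only on the TMM scale.

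Directions within the family followed the scaling to a large extent. When library size alone was used, the median log2 fold change of the 10 members was -1.51 and that of all genes -1.76. Of the 10 members 3 were called lower (nas-24, nas-37 and nas-39), where 52.3% of all genes were called lower and 3.84% higher. By that measure the groups did not overlap for 5 members, all lower (nas-11, nas-17, nas-24, nas-37 and nas-39), against 50.2% of all genes tested in the lower and 6.32% in the higher direction. With the top 3% of genes by level left out of the library size, nas-24 was the only member called (-3.07, edgeR adjusted p 0.0372), where 32.7% of all genes were called lower and 9.45% higher. Under all 3 scalings nas-24 was lower.

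**Figure D4:**
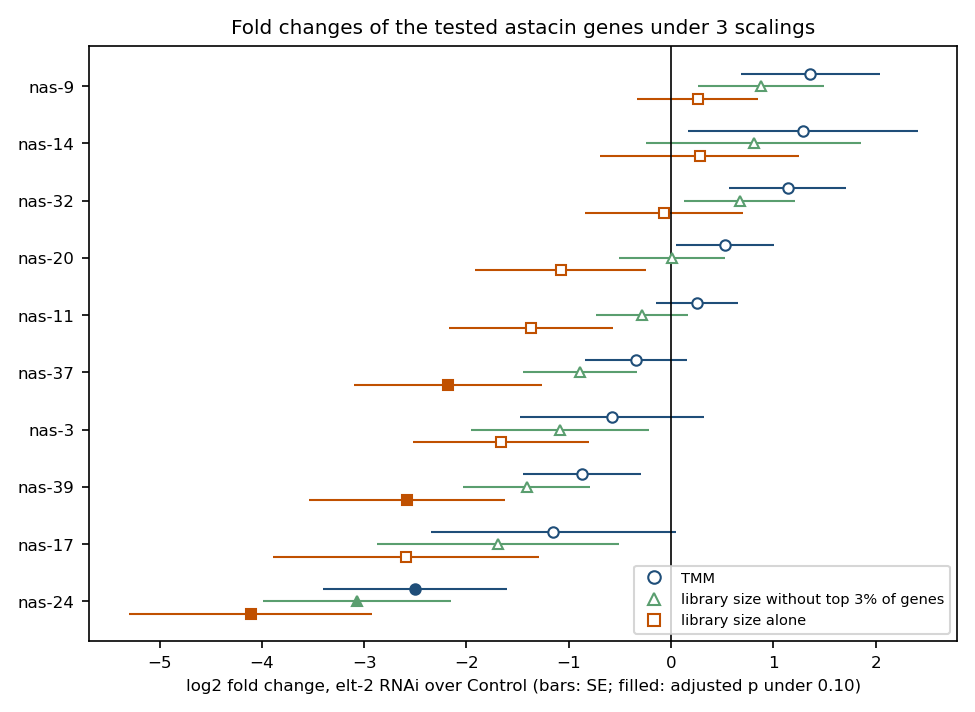
Log2 fold change of each tested astacin gene, elt-2 RNAi over Control, under TMM scaling (circles), library size less the top 3% of genes by level (triangles) and library size alone (squares). Bars are SE and filled symbols have an edgeR adjusted p under 0.10. nas-24 is filled under all 3 scalings, and nas-32, nas-20 and nas-11 lie on both sides of 0.

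The 24 members with too few counts to be tested held 25, 23 and 36 counts together in the RNAi-labelled libraries, against 251, 161 and 42 in the Control-labelled libraries. In CPM after TMM scaling this was 1.21, 1.20 and 2.09 (RNAi-labelled) against 4.39, 5.14 and 1.78 (Control-labelled), so that Control C lay with the RNAi-labelled libraries rather than with Control A and B. Of these genes 15 had at least 10 counts in all, and for 14 of the 15 the highest values by library size were in Control A and Control B. The same held for 56.8% of all untested genes with at least 10 counts, and for 49.6% of all genes with a count. Only nas-22 departed from it, with 1, 0 and 8 counts in the RNAi-labelled libraries against 5, 1 and 4 in the Control-labelled libraries. Reads under the Control label alone were found for 6 of the 34 members, against 1725 of all 19512 genes in the table (8.84%). That share covers genes of every level and is not matched to rarely read ones. Of the 6 members, nas-29 had the most, with 15, 4 and 0 counts in the Control-labelled libraries, so that the groups overlapped. Its summed counts were at least 3.22-fold lower in the RNAi-labelled libraries after TMM scaling (floor of 3 counts over the group). This bound leaves out the spread between libraries. With no filter nas-29 was not called (edgeR log2 fold change -5.0, SE 2.11, adjusted p 0.157). nas-27, with 3 counts, was the only member read under the elt-2 RNAi label alone. The untested members not described elsewhere here (nas-1, nas-5, nas-8, nas-12, nas-13, nas-15, nas-23, nas-25, nas-28, nas-30, nas-31 and nas-33) had sums of 0 to 9 counts in the RNAi-labelled libraries against 1 to 40 in the Control-labelled ones, with nas-30 the highest (7 against 40).

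Both other molting astacins were too rarely read to be tested. nas-36 (C26C6.3), which like nas-37 is needed for ecdysis, had 6, 1 and 3 counts in the RNAi-labelled libraries, against 15, 5 and 1 counts in the Control-labelled libraries. A ratio of 0.936 was found for its sums after TMM scaling (95% counting interval 0.393 to 2.08) and of 0.321 by library size alone (0.135 to 0.711). nas-38 (F57C12.1), which in the worm influences the sleep-like quiescence that accompanies each molt, had 3, 1 and 2 counts in the RNAi-labelled libraries, against 20, 42 and 3 in the Control-labelled ones. Its ratio of summed counts was 0.181 after TMM scaling (95% counting interval 0.0642 to 0.417), and Control B and C differed from each other more than Control C did from the RNAi-labelled libraries. These intervals cover counting error only and leave out the spread between cultures. With no filter neither gene was called. The edgeR log2 fold change was 0.15 for nas-36 (SE 0.97, adjusted p 0.921) and -2.44 for nas-38 (SE 1.0, adjusted p 0.136).

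Of the pharyngeal astacins, nas-7 (C07D10.4) had 3, 3 and 4 counts in the RNAi-labelled libraries, against 58, 25 and 8 counts in the Control-labelled libraries. Each RNAi-labelled library lay below each Control-labelled one on both scales, and the ratio of summed counts after TMM scaling was 0.216 (95% counting interval 0.1 to 0.416). nas-7 had too few counts for the main comparison, and with no filter it was not called (edgeR log2 fold change -1.95, SE 0.73, adjusted p 0.108). Its exons overlap those of C07D10.1 on the opposite strand by 2 bp, which had 1, 1 and 2 counts in the RNAi-labelled libraries and 61, 17 and 7 in the Control-labelled ones. nas-6 (4R79.1), which acts with nas-7 in forming the grinder, had no count in the RNAi-labelled libraries and 4, 2 and 0 in the Control-labelled libraries. nas-4, of the short type, had 8 counts under the elt-2 RNAi label against 25 under Control, and it shares 437 bp of exon with C05D11.5 on the same strand.

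Astacins with other symbols fall outside the naming rule, and 3 of them are given for comparison. hch-1, the hatching enzyme, had 51, 1 and 1 counts in the RNAi-labelled libraries, against 777, 615 and 5 counts in the Control-labelled libraries. The log2 difference of -3.67 (SE 1.60, edgeR adjusted p 0.138) did not pass the test, which called none of the 3 such genes (0 also at an unadjusted p under 0.05 and by DESeq2, and 1 lower by the rank product), and Control C resembled elt-2 RNAi B and C. dpy-31, which trims the C-terminal end of cuticle procollagen, differed by -0.23 on the log2 scale (SE 0.42, edgeR adjusted p 0.700), and toh-1, a tolloid-like astacin, by 0.10 (SE 0.60, edgeR adjusted p 0.912). The collagens of the DPY-31 pathway, sqt-3 and dpy-17, were both called lower. Of these 2 genes 0 were called without elt-2 RNAi B, without elt-2 RNAi C or without both B libraries, and 1 without elt-2 RNAi A, and over all genes 15.9% were called lower. dpy-17 had 497, 50 and 120 counts in the RNAi-labelled libraries against 45847, 47652 and 357 in the Control-labelled ones (log2 fold change -6.12, SE 1.62, edgeR adjusted p 0.0438), and sqt-3 had 55, 49 and 70 counts in the RNAi-labelled libraries against 3946, 6683 and 38 in the Control-labelled ones (-4.93, SE 1.37, edgeR adjusted p 0.0495). In both, Control C was nearer to the RNAi-labelled libraries than to Control A and B.

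Of a list of 26 other genes of the molt, chosen by known role, 19 were tested, of which 9 were called lower and 0 higher by edgeR, against 15.9% and 13.0% of all genes, with a median of -1.55, beside -0.12 for all genes. At an unadjusted p under 0.05 there were 11 lower and 1 higher, and DESeq2 called 10 lower and 1 higher. The 9 called by edgeR include noah-1 and noah-2, which form the precuticle, lrp-1, a sterol endocytosis receptor, and nhr-23, a nuclear receptor that drives molting genes. They also include qua-1 and mlt-10, for which the groups overlapped. Positive log2 fold changes that did not pass the test were found for mlt-4 (1.51, edgeR adjusted p 0.121), bli-1 (1.75, edgeR adjusted p 0.178), bli-2 (1.21, edgeR adjusted p 0.358) and rol-6 (1.34, edgeR adjusted p 0.198). nhr-23 had 13, 22 and 21 counts in the RNAi-labelled libraries, against 228, 61 and 54 counts in the Control-labelled libraries (log2 fold change -1.46, SE 0.48, edgeR adjusted p 0.0722). The summed level of the list was 33.8 to 38.5 CPM in the RNAi-labelled libraries, against 225, 161 and 40.5 CPM in the Control-labelled libraries. The count of 9 was 0 of 24 without elt-2 RNAi C, a fit that called only 20 of 12715 genes lower in all. It was 4 of 24 without elt-2 RNAi B (414 of 12690 in all) and 5 of 23 without elt-2 RNAi A (693 of 12653). Without Control A it was 5 of 19 (588 of 11726), and without Control C it was 16 of 24 (2360 of 12886).

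**Figure D5:**
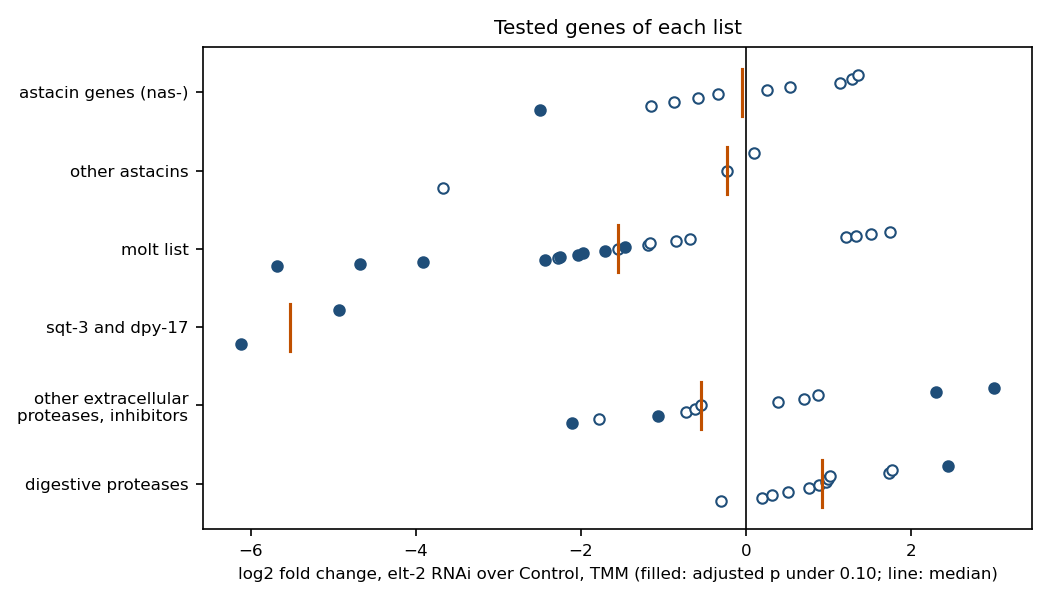
Log2 fold change after TMM scaling of each tested gene, elt-2 RNAi over Control, for the astacin genes and the comparison lists. Filled circles have an edgeR adjusted p under 0.10 and the vertical line marks the median of a list. The astacin genes lie on both sides of 0 with a median of -0.05, and the molt list has its median at -1.55.

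Marker lists of the tissues a whole worm holds were read in all libraries and moved in different directions. Of 5 tested pharynx markers 1 was called lower (pha-4) and 1 higher (myo-2), with summed levels of 128 to 172 CPM in the RNAi-labelled libraries against 46.4 to 103 CPM in those labelled Control, and overlapping sums by library size alone (76.0 to 109 CPM against 71.2 to 160 CPM in the same order). Of 4 tested epidermis markers 1 was called lower (wrt-2), with 13.3 to 17.2 CPM (RNAi-labelled) against 11.1 to 41.6 CPM (Control-labelled), and che-14, an epidermal gene of this list, was at 0 in elt-2 RNAi A and B. rol-6 and elt-3 of the same list had positive log2 fold changes that did not pass the test (1.34, SE 0.70, edgeR adjusted p 0.198, and 0.45, SE 0.45, edgeR adjusted p 0.482). dpy-7, a collagen of the epidermis, had 7, 4 and 6 counts in the RNAi-labelled libraries, against 725, 531 and 3 in the Control-labelled libraries. Of 7 intestine markers 1 was called lower (elt-7) and 3 higher (elt-2 itself, act-5 and pept-1), with 360 to 533 CPM (RNAi-labelled) against 84.6 to 144 CPM (Control-labelled). act-5 made up 294, 303 and 294 CPM of the RNAi-labelled sums. By library size alone the sums overlapped, at 251 to 262 CPM (RNAi-labelled) against 125 to 292 CPM (Control-labelled). Not called were ges-1 (log2 fold change -1.18, edgeR adjusted p 0.203), ifb-2 (-0.03, edgeR adjusted p 0.965) and vha-6 (0.69, edgeR adjusted p 0.455). Of 4 neuron markers 3 were called lower, with 11.9 to 13.9 CPM (RNAi-labelled) against 20.7 to 35.1 CPM (Control-labelled). Of 6 germ line and sperm markers glh-1 was called higher, and of 4 body wall muscle markers none was called by edgeR (1 higher at an unadjusted p under 0.05 and by DESeq2, 2 higher by the rank product). Over all genes 15.9% were called lower and 13.0% higher. Without elt-2 RNAi C no gene of the pharynx, epidermis, intestine, neuron or germ line lists was called, and over all genes the calls numbered 20 lower and 445 higher. When elt-2 RNAi B was left out, these lists had 2 calls, both higher and in the intestine list, and without Control A the neuron list had 1 call and the pharynx and epidermis lists 0. What part tissue content or molt timing has in the astacin values was not tested.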

How the data were processed

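The deposited values are unnormalized counts of reads per gene from 6 3SEQ libraries (3-prime ends of poly-A RNA), 3 for each label. The authors kept uniquely mapped reads, and the submitters' processing notes name Bowtie 0.12.7. The genome build, annotation, counting program and use of strand are not given in the sources used here. Sequence names were paired with WBcel235 (Ensembl release 115), which matched 19081 of 19512 genes (97.8%). All coordinates come from that annotation.

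Counts were filtered with filterByExpr (11474 genes kept), scaled by TMM and tested with edgeR 4.0.16 in R 4.3.3 (quasi-likelihood, two-sided, group as the only term, all 6 libraries). p-values were adjusted over all tested genes by Benjamini-Hochberg and called under 0.10. SE is the log2 fold change over the square root of F. A rank product of the study's type was an alternative, since counts call for a count model. It was coded anew rather than run with the study's RankProd package. It compared each RNAi-labelled with each Control-labelled library, on counts scaled by library size alone and not by TMM. These comparisons share libraries, but the null treats them as independent, so its adjusted p may be too small. The other alternatives were scaling by library size alone or without the top 3% of genes, DESeq2 1.42.0, dropping the filter, a minimum of 10 counts in each library, the replicate block, leaving out each library, and adjusted p under 0.05; leaving out both B libraries was added after seeing the data. Single genes were also compared by exact permutation of log2(CPM + 0.1). Ratios of summed counts for untested genes carry 95% exact binomial counting intervals and a floor of 3 counts. The fits were also run on simulated counts. In each run these had a common spread for all genes and changes in well-read genes only. They do not gauge the fits for rarely read genes or for replicates that differ as here.

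Members and lists were chosen with earlier results of these data known. Members named with values were those called, those with known roles in pharynx or molt, nas-39 and the 5 most abundant, and the other tested members were given as well; untested members were named at the ends of ranges, in tandem runs or where they passed an alternative, after their values were seen. The labels number replicates by letter, and the methods call them biological replicates.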

Additional observations from a re-analysis of the deposited data

How the results depend on the processing

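Alternative settings changed both counts and directions. Over all genes the main counts were 1823 lower and 1489 higher. These were 6000 and 441 with library size alone, 3747 lower without the most abundant 3% of genes, 339 and 880 with a replicate block, 675 and 912 at an adjusted p under 0.05, and 978 and 885 without both B libraries. Leaving out 1 library at a time gave 20 to 2360 lower and 445 to 1930 higher. Of the astacin genes 1 was called lower and 0 higher. The lower count was 3 with library size alone, 2 with the rank product, 2 with no filter, 0 with at least 10 counts in every library (nas-24 is then not tested), 0 at an adjusted p under 0.05 and 0 without both B libraries. Leaving out 1 library gave 0 to 3 lower and 0 to 1 higher. The 3 (nas-7, nas-19 and nas-38) fail the main filter and were called in the fit without Control C. For nas-7 and nas-38 Control C is the lowest control, so that these calls support no difference. For nas-19 it has the fewest counts of the controls but the highest TMM-scaled value (0.340 CPM). nas-19 passed that fit's filter only through its Control counts, and it was also called with no filter and all 6 libraries. The median of the members (-0.05) was -1.51 with library size alone, -0.58 without the most abundant 3% of genes, -1.48 with the rank product, -0.63 with no filter and 0.41 with at least 10 counts in every library, which each test other genes or shift all genes, and -0.79 to -0.11 when 1 library was left out.

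Signs turned for 6 members, none of them called in the main comparison. nas-11 had -1.37 with library size alone, -0.28 without the most abundant 3% of genes and -1.25 with the rank product, which also scales by library size alone. nas-20 had -1.08 and nas-32 -0.07 with library size alone, and with the rank product nas-20 had -1.03, nas-32 -0.03 and nas-14 -0.03. Leaving out 1 library gave -1.36 to 0.83 for nas-3 and -0.57 to 0.11 for nas-37. The same-lettered libraries did not deviate together (correlations of -0.203, -0.574 and -0.109 for A, B and C across genes). Between libraries of different letters the correlations were -0.147 to 0.348, so that the negative value of the B pair was the strongest. Deviations from a group mean of 3 libraries depend on each other, so this check cannot decide whether the letters pair the samples. With the replicate block nas-24 kept its call (log2 fold change -3.30, edgeR adjusted p 0.0859), and no other member was called. Of the 19 tested molt genes 9 were called lower, and 15 with library size alone, 3 with the replicate block and 5 without both B libraries, the last a setting chosen after seeing the data. In all 24 of 34 members had too few counts to be tested, and for most of these only counts or counting intervals are given.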

Other observations

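Other extracellular proteases and their inhibitors were called in both directions, near the 15.9% lower and 13.0% higher of all genes. Of 11 tested genes 2 were called lower, nep-1 of the neprilysin type (log2 fold change -2.11, SE 0.59, edgeR adjusted p 0.0509) and the matrix metalloprotease gene zmp-4 (-1.07, SE 0.39, edgeR adjusted p 0.0934), and 2 were called higher, the ADAMTS genes adt-3 (3.01, SE 0.62, edgeR adjusted p 0.0227) and gon-1 (2.30, SE 0.83, edgeR adjusted p 0.0889). The count lower was 0 without Control A, without elt-2 RNAi B or without elt-2 RNAi C, and without elt-2 RNAi C or both B libraries 0 genes were called in either direction. Of 12 tested digestive proteases of the aspartyl and cathepsin types, asp-1 was called higher (2.45, SE 0.69, edgeR adjusted p 0.0508) and 0 lower by edgeR, DESeq2 or an unadjusted p under 0.05, while DESeq2 called 4 higher. Without Control B, without elt-2 RNAi B or without elt-2 RNAi C the count higher was 0. asp-1 had 26807, 62690 and 39881 counts in the RNAi-labelled libraries, against 12937, 11441 and 15764 in the Control-labelled libraries. cpr-5, a cathepsin B, had 644, 23010 and 501 counts in the RNAi-labelled libraries, against 3249, 118 and 16060 in the Control-labelled libraries, so that the B library of each label stood apart from the other 2 in opposite directions. The same was seen for asp-2 (103, 2526 and 138 against 1446, 39 and 1102 counts) and cpr-6 (1014, 9575 and 704 against 6507, 829 and 7829). The intestine marker vha-6 also had it (120, 306 and 82 against 303, 61 and 218), whereas asp-4, asp-6 and cpl-1 did not. What sets the B libraries apart was not tested, and the main comparison includes both of them.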
